A study of Homo sapiens with 6 samples.

Results

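The translation initiation and elongation factors are the proteins that bring ribosome, initiator tRNA and mRNA together and then move the ribosome along the coding sequence. The 47 member genes were chosen by name, as the genes of the eIF and eEF factors, their binding proteins and the eEF2 kinase, with no measured value in the rule. They hold 614 of the 153848 annotated transcripts and 47 of the 31768 genes in the table. After the limits on low counts, 43 members were tested as genes, with 468 transcripts. The other 4 members (EIF2S2, EIF3A, EIF4EBP2 and EEF2K) did not have 2 transcripts past those limits, and their values come from a separate fit that admits genes with 1 transcript.

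RNA was taken from HMC3 cells, an immortalized human line labelled as microglia, after 24 h. Irradiated cells received 15 Gy from a clinical linear accelerator, and control cells received 0 Gy. Each group had 3 independent cultures, and all 6 came from the same line with no other agent or genetic change. Poly(A) RNA was copied into cDNA, amplified by PCR and read in full length by nanopore sequencing, and reads were assigned to transcripts by Salmon. The irradiated libraries held 6292049 to 6909420 counts and the control libraries 4870897 to 9082409.

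Initiation begins when eIF2 carries the initiator tRNA to the small ribosomal subunit with the help of eIF1, eIF1A and eIF3. The cap-binding complex of eIF4E, eIF4G and the helicase eIF4A recruits the mRNA, eIF5 and eIF5B complete start site recognition and subunit joining, and eIF2B recharges eIF2 with GTP. In elongation, eEF1A delivers each aminoacyl tRNA, the eEF1B subunits recharge eEF1A, and eEF2 moves the ribosome one codon onward. Many of these mRNAs start with a run of pyrimidines after a cytosine, a feature called a terminal oligopyrimidine (TOP) tract, through which mTOR and LARP1 control their translation.

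TOP tracts were looked for in the annotated start sites that RefSeq gives for assembly GRCh38.p14, since they are the sequence feature that the literature ties to this gene family. A start was counted when its first transcribed base was C and at least 4 further bases were each C or T, read on the transcribed strand only. Of the 47 members, 39 had an entry, and 11 of these (28.2%) had such a start, against 1404 of 27305 genes (5.14%) and 1429 of 35116 starts (4.07%) in the table. EEF1D, EIF2S2, EIF3A, EIF3E, EIF3G, EIF3H, EIF3L and EIF4EBP1 had no entry. The windows shown hold 10 bases before the start and 20 bases from it, 5′ to 3′ on the strand of the gene, and the capitals mark the tract. The first 5 are elongation and initiation factors with a tract, and the last 3, all in lower case, are members without one at the annotated start that return in the results.
EEF1A1, chr6:73521013-73521042, minus strand: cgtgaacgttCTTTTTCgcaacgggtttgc
EEF1B2, chr2:206159885-206159914, plus strand: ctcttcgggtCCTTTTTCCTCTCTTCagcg
EEF2, chr19:3985444-3985473, minus strand: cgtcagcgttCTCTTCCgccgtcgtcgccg
EIF3K, chr19:38619178-38619207, plus strand: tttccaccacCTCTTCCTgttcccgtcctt
EIF4B, chr12:53006446-53006475, plus strand: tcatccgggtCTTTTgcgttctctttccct
EEF1G, chr11:62573872-62573901, minus strand: cgggcggcttactttgcggcagcgccgaga
EEF1E1, chr6:8102529-8102558, minus strand: tgcaggtctcgcgtctgccaggagctacgg
EIF4G3, chr1:21176878-21176907, minus strand: ttttccgagcagccgtcctgccggactgct

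Levels are given as CPM, the counts of a gene in a culture scaled to an equal library size by TMM, a method that treats most genes as equal between libraries. TMM factors were 1.09 to 1.24 in irradiated and 0.793 to 0.928 in control libraries. With library totals alone, all genes had a median log2 fold change of 0.528, against 0.0803 with TMM, a shift of 0.448 that applies to every gene and against which member changes are to be read. CPM are shares of a library, so less of an mRNA per cell and more of other RNA cannot be told apart. CDKN1A and MDM2, targets of p53, rose by 1.77 and 1.64 on the log2 scale. Of 10 markers of microglia and macrophages, CD68 alone passed the count limits. AIF1, CSF1R, PTPRC, SPI1 and TREM2 had at most 13 counts in any library. All 6 markers of fibroblasts and pericytes passed, but PDGFRB with only 13 to 19 counts a library and COL1A2 with 9 to 68. The astrocyte marker SLC1A3 passed too, with 66 to 216 counts.

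On the TMM scale the translation factors as a group were lower in irradiated than in control cells, while with library totals alone their median lay slightly above 0. By an adjusted p under 0.05 (edgeR's quasi-likelihood test, Benjamini-Hochberg over all 11118 genes), 21 of the 43 tested members fell, where 14.1% of all genes fell, and 1 member, EIF4G3, rose, where 11.6% of all genes rose. The groups did not overlap for 33 members that were lower (21.3% of all genes) and 4 that were higher (21.5% of all genes). The median log2 fold change was −0.415 over the 43 members and 0.08 over all genes. The changes were small, and only EEF1E1 and EIF2B2 also passed an absolute log2 fold change of 1, a limit passed by 5.7% of all genes. EIF4G3, at 0.9998, lay just outside it.

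The count of calls depended on the scaling between libraries. With library totals alone, 8 members fell (EEF1A1, EEF1E1, EEF1G, EIF1B, EIF3E, EIF3H, EIF3I and EIF3K) and 7 rose (EEF2, EIF3B, EIF4B, EIF4G1, EIF4G2, EIF4G3 and EIF4H), and the median was 0.037, still below the 0.528 of all genes on that scale. No member called on one scale was called in the opposite direction on the other. Before any scaling between libraries, the 47 members held 1.84, 1.89 and 1.89% of all counts in the irradiated cultures, against 2.04, 1.96 and 1.95% in the control cultures. These shares did not overlap, but EEF1A1 and EEF1G weighed heavily in them. EEF1A1 alone held 0.628 to 0.6795% of all counts in irradiated and 0.7026 to 0.7595% in control cultures. EEF1G held 0.14 to 0.1583% in irradiated and 0.1885 to 0.2074% in control cultures. The pooled shares therefore do not show a drop in the other members. Leaving out control culture 3 raised the count to 27 lower and 3 higher, while leaving out irradiated culture 1 or irradiated culture 3 gave 17 lower and 1 higher. Of the 22 called members, 16 were called whichever culture was left out, and EIF1, EIF1AX, EIF3L, EIF4A1, EIF4E2 and EIF6 were not.

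**Figure D1:**
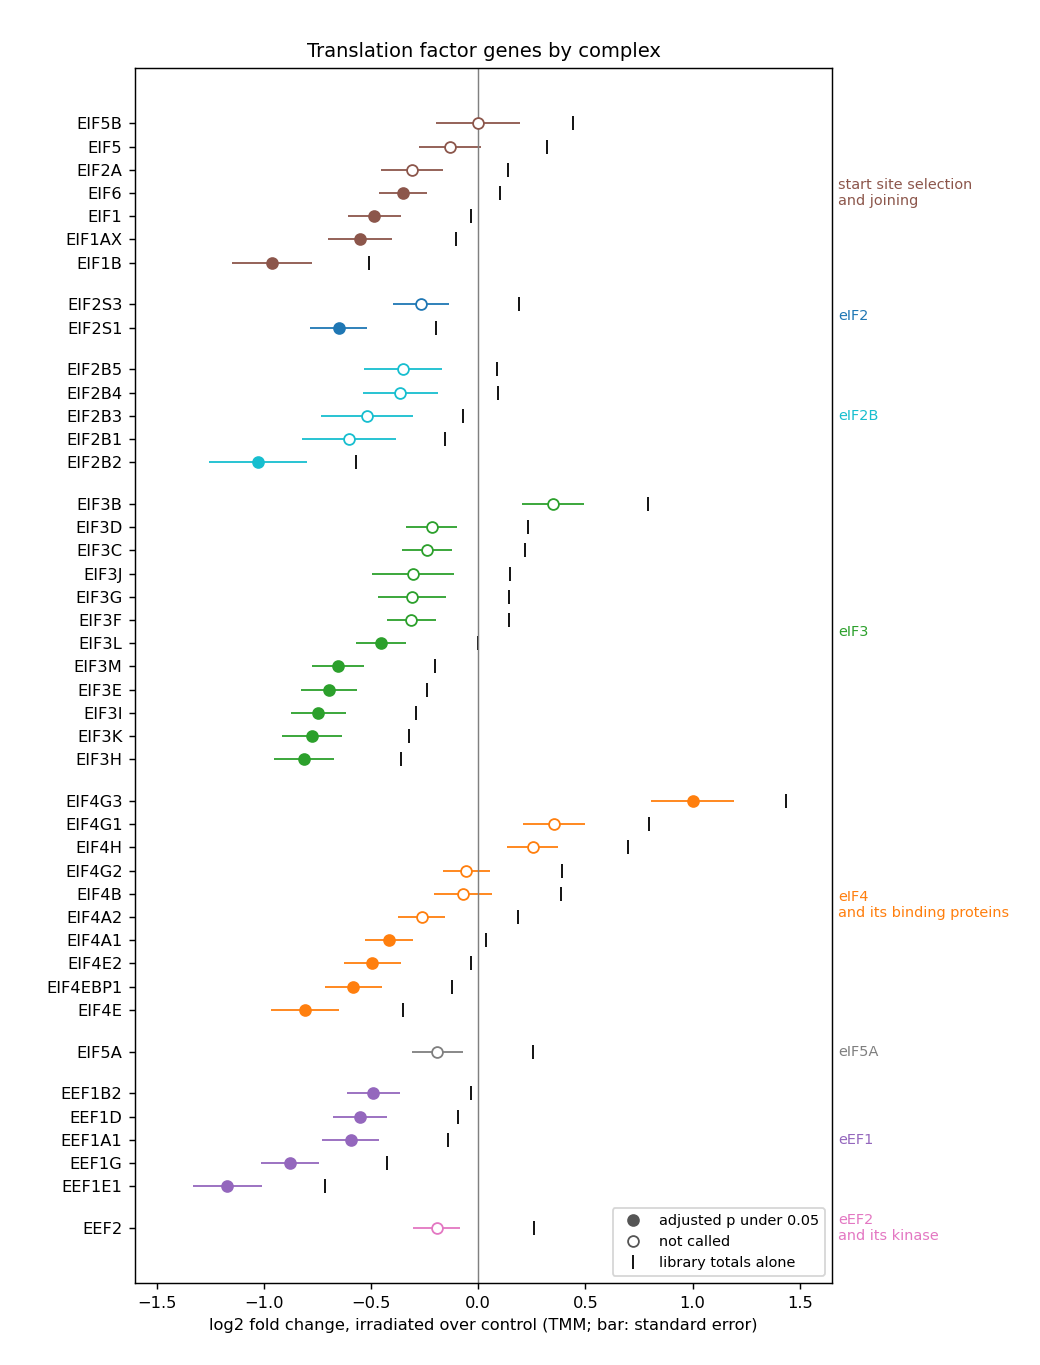
Log2 fold change of the 43 tested members (irradiated over control, x axis), grouped by complex, with circles for the TMM scale, bars for the standard error, filled circles for an adjusted p under 0.05 and black ticks for library totals alone. All 5 eEF1 genes are filled and to the left of 0, EIF4G3 is the only filled circle to the right, and every tick lies to the right of its circle, which carries several unfilled members and the called EIF4A1 and EIF6 across 0.

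The elongation factor eEF1 group had a median of −0.595 on the log2 scale, and all 5 of its genes fell. The group takes in EEF1E1 by its name, although the product of that gene is a scaffold of the synthetase complex and not a subunit of eEF1, and the median of the other 4 genes was −0.573. In each irradiated culture its median lay below that of each control culture, at −0.747, −0.471 and −0.587 in irradiated cultures against 0.046, 0.156 and −0.174 in control cultures, relative to the control mean of each gene. The median stayed below 0 with library totals alone, at −0.141.

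EEF1A1, on chromosome 6 from 73515750 to 73523797 (GRCh38, GENCODE release 29, minus strand), encodes the factor that delivers aminoacyl tRNA and held more counts than any other member. It had 5287, 6495 and 5908 CPM in irradiated cultures, against 9280.2, 9547 and 7885 CPM in control cultures. The groups did not overlap, and EEF1A1 fell by 0.59 on the log2 scale (standard error 0.134, edgeR adjusted p = 0.00479). As a share of all counts before scaling it made up 0.628, 0.6795 and 0.669% of irradiated and 0.7595, 0.7297 and 0.7026% of control libraries. EEF1A2, a near-identical copy that adult neurons and muscle use, rose by 0.61 (edgeR adjusted p = 0.00998), but EEF1A1 held 97.2 to 99.2% of their joint counts. The sum of both copies was 6041 ± 606 CPM in irradiated and 8999 ± 875 CPM in control cultures (SD, n = 3 each).

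EEF1G (chromosome 11, 62559601 to 62574086, minus strand) encodes the gamma subunit that anchors the exchange complex. It had 1179, 1513 and 1305 CPM in irradiated cultures, against 2514, 2713 and 2115 CPM in control cultures. All irradiated values lay well below the lowest control value, and EEF1G fell by 0.88 on the log2 scale (standard error 0.135, edgeR adjusted p = 0.000754). The alpha and delta subunits, EEF1B2 and EEF1D, which carry the nucleotide exchange activity, fell by less. EEF1D had 931, 1032 and 981 CPM in irradiated cultures, against 1415, 1633 and 1268 CPM in control cultures, and fell by 0.55 (edgeR adjusted p = 0.00479). EEF1B2 averaged 951.7 ± 70.7 CPM in irradiated and 1336 ± 144 CPM in control cultures (SD, n = 3 each) and fell by 0.49 (edgeR adjusted p = 0.0089). The ratio of EEF1B2 to EEF1D, which does not depend on scaling, was 0.935, 0.952 and 1.02 in irradiated and 0.936, 0.9102 and 0.945 in control cultures. These ratios overlapped, with a log2 difference of 0.058 (p = 0.3, two-sided exact permutation test, which cannot go below 0.1 with 3 cultures against 3). It was 1 of 4 ratios tested, each with p = 0.3 after Benjamini-Hochberg adjustment of the exact tests.

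EEF1E1 (chromosome 6, 8073360 to 8102578, minus strand), a scaffold protein of the aminoacyl tRNA synthetase complex, had the lowest fold change of the 43 members. It had 34.8, 40.5 and 38.6 CPM in irradiated cultures, against 97.6, 92.9 and 67.1 CPM in control cultures. The level in irradiated cells was 0.444 of that in control cells, with a log2 fold change of −1.17 (standard error 0.161, edgeR adjusted p = 0.000458). The call was made whichever culture was left out, with log2 fold changes between −1.35 and −1.09.

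EEF2, the translocase, differed little. It had 352, 381 and 393 CPM in irradiated cultures, against 435, 444 and 408 CPM in control cultures, a log2 fold change of −0.19 (standard error 0.111, edgeR adjusted p = 0.208) that turned to 0.26 and was called with library totals alone. EEF2K, the kinase that inactivates EEF2, had 15, 10 and 16 counts in irradiated libraries and 1, 11 and 16 in control libraries, too few to show a difference of moderate size. EIF5A, whose hypusine-bearing product helps ribosomes through stalling sequences, had 634.5 ± 40.7 CPM in irradiated and 724.7 ± 75.8 CPM in control cultures (SD, n = 3 each) and overlapped between the groups. Adding the near-identical EIF5AL1, whose reads could be divided with it, gave a log2 ratio of −0.185.

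**Figure D2:**
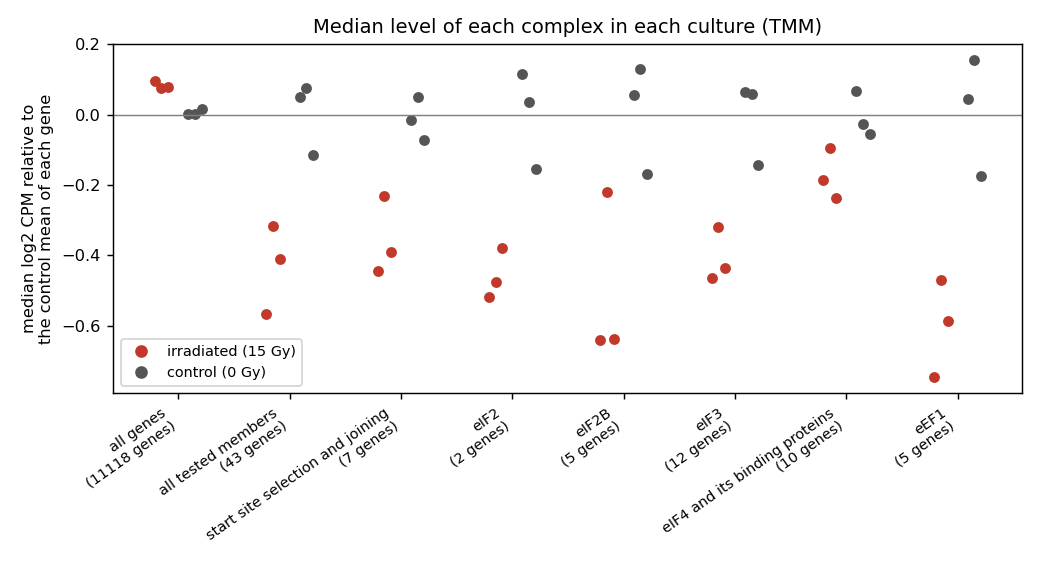
Median log2 CPM of the tested genes of each complex in each culture, relative to the control mean of each gene (y axis, TMM scale), with irradiated cultures left of control cultures. For eEF1 the irradiated points lie at −0.747 to −0.471 and the control points at −0.174 to 0.156, for eIF4 the gap is narrow, and over all genes the irradiated points lie slightly above 0. With library totals alone the medians of eIF3 and eIF4 turn to 0.070 and 0.286.

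Among the factors of start site selection and subunit joining, 4 of 7 genes fell, with a median log2 fold change of −0.35. EIF1B, a paralog of EIF1, had 19.3, 29.2 and 25.1 CPM in irradiated cultures, against 46.2, 54.9 and 41.9 CPM in control cultures. It was lower in every irradiated culture than in any control culture and fell by 0.96 on the log2 scale (standard error 0.186, edgeR adjusted p = 0.00205). EIF1, which holds the scanning ribosome open until the start codon is found, had 1030.0, 1225 and 1023 CPM in irradiated cultures, against 1511, 1639.8 and 1434 CPM in control cultures. It fell by 0.48 (edgeR adjusted p = 0.00907), a call lost without irradiated culture 3 (adjusted p = 0.0685). EIF1AX, the partner of EIF1 in scanning, fell by 0.55 (edgeR adjusted p = 0.0134), a call lost without irradiated culture 1 (adjusted p = 0.0748).

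EIF6, which keeps the large ribosomal subunit from joining too early, fell by 0.35 (edgeR adjusted p = 0.032), but with library totals alone its log2 fold change was 0.10, and 4 of the 6 fits that left out 1 culture lost the call, with adjusted p up to 0.137. EIF2A, EIF5 and EIF5B were not called. EIF5B, the GTPase of subunit joining, was nearly equal, at 19.68 ± 3.03 CPM in irradiated and 19.66 ± 1.39 CPM in control cultures (SD, n = 3 each).

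The tested eIF2 and eIF2B genes all had log2 fold changes below 0 on the TMM scale, with medians of −0.46 and −0.52, but few were called, and with library totals alone the medians were −0.004 and −0.072. EIF2S1 (chromosome 14, 67359997 to 67386516, plus strand) encodes eIF2 alpha, the subunit phosphorylated when cells halt initiation under stress. It had 68.6, 77.6 and 81.0 CPM in irradiated cultures, against 131.2, 123.9 and 102.8 CPM in control cultures. The groups were apart, and EIF2S1 fell by 0.65 on the log2 scale (standard error 0.135, edgeR adjusted p = 0.00295). EIF2S2, the beta subunit, had 218, 246 and 214 CPM in irradiated cultures, against 437, 440.4 and 359 CPM in control cultures. In the fit of 12856 genes that admitted single transcripts it fell by 0.88 (standard error 0.126, edgeR adjusted p = 0.00121). The gamma subunit gene EIF2S3 averaged 62.62 ± 2.93 CPM in irradiated and 75.58 ± 4.93 CPM in control cultures (SD, n = 3 each) and was not called (edgeR adjusted p = 0.142).

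Of the 5 subunits of eIF2B, the exchange factor on which phosphorylated eIF2 acts, EIF2B2 alone was called in the main fit. EIF2B2 (chromosome 14, 75002911 to 75012366, plus strand) had 8.03, 8.82 and 8.44 CPM in irradiated cultures, against 17.8, 19.4 and 14.5 CPM in control cultures, on 59 to 127 counts a library. The level in irradiated cells was 0.491 of that in control cells, a log2 fold change of −1.03 (standard error 0.227, edgeR adjusted p = 0.0044). The other 4, EIF2B1, EIF2B3, EIF2B4 and EIF2B5, had log2 fold changes of −0.60 to −0.35 with adjusted p between 0.0525 and 0.162. EIF2B1 was called with RLE factors in place of TMM, with single-transcript genes admitted, with a replicate block, with an offset for length and without control culture 3. EIF2B3 was called without irradiated culture 2 and without control culture 3.

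The eIF3 complex, the largest initiation factor and the scaffold on the small subunit, had a median log2 fold change of −0.382 (0.070 with library totals alone). On the TMM scale 11 of its 12 tested genes were lower without overlap (21.3% of all genes), and 1 was higher (21.5% of all genes). EIF3E, EIF3H, EIF3I, EIF3K, EIF3L and EIF3M fell, and the other 6 tested subunits were not called. EIF3H had 103, 132 and 122 CPM in irradiated cultures, against 226, 231 and 173 CPM in control cultures, and fell by 0.81 on the log2 scale (standard error 0.140, edgeR adjusted p = 0.00109). EIF3K, which with EIF3L forms a peripheral pair of the complex, had 122, 162 and 126 CPM in irradiated cultures, against 230.5, 265 and 205 CPM in control cultures. It fell by 0.78 (standard error 0.139, edgeR adjusted p = 0.00135), and its start carries a pyrimidine tract. EIF3L fell by 0.45 (edgeR adjusted p = 0.0102), a call lost without irradiated culture 1 or irradiated culture 3, with adjusted p up to 0.0576.

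EIF3I, a beta-propeller subunit, had 341, 409.8 and 419 CPM in irradiated cultures, against 672.5, 724 and 566 CPM in control cultures, and fell by 0.75 on the log2 scale (standard error 0.129, edgeR adjusted p = 0.00113). EIF3M had 111, 127 and 115.5 CPM in irradiated cultures, against 184, 205 and 168 CPM in control cultures, and fell by 0.66 (standard error 0.122, edgeR adjusted p = 0.00168). EIF3E had 464, 544 and 523.5 CPM in irradiated cultures, against 916, 881 and 683 CPM in control cultures, and fell by 0.69 (standard error 0.131, edgeR adjusted p = 0.00182). In all 3 genes the highest irradiated value was below the lowest control value, and control culture 3 was the lowest control.

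EIF3B was the exception in this complex. This RNA-binding core subunit had 62.6, 71.8 and 64.3 CPM in irradiated cultures, against 46.4, 50.5 and 58.3 CPM in control cultures, with no overlap, and was not called (log2 fold change 0.35, edgeR adjusted p = 0.084) except with library totals alone and without control culture 3. EIF3A, the largest subunit, had 24.1, 20.5 and 23.9 CPM in irradiated cultures, against 18.3, 17.9 and 24.8 CPM in control cultures, and overlapped (edgeR adjusted p = 0.622 in the fit of 12856 genes). EIF3C has a near-identical copy on the same chromosome, EIF3CL, between which reads could be divided, and held 63.3 to 70.3% of their joint counts. The sum of both was 445.7 ± 9.59 CPM in irradiated and 564.1 ± 72.8 CPM in control cultures (SD, n = 3 each), a log2 ratio of −0.34, where EIF3C alone gave −0.24 (edgeR adjusted p = 0.148). EIF3D, EIF3F, EIF3G and EIF3J had log2 fold changes of −0.31 to −0.22, and EIF3F missed the threshold narrowly (adjusted p = 0.0522, edgeR). EIF3F was called with RLE factors, DESeq2, the stricter filter on low counts and a replicate block, and without control culture 3. With library totals alone EIF3D, EIF3F, EIF3G and EIF3J were slightly above 0, between 0.143 and 0.232, and uncalled.

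The cap-binding group went both ways, with 4 of 10 tested genes lower, 1 higher and a median of −0.168 (0.286 with library totals alone). EIF4G3 (chromosome 1, 20806292 to 21176888, minus strand), one of the scaffold proteins that bridge cap and ribosome, was the only member that rose. It had 57.4, 60.9 and 46.3 CPM in irradiated cultures, against 22.3, 23.0 and 36.0 CPM in control cultures. Control culture 3 was again nearest to the irradiated cultures, and the log2 fold change was 1.00 (standard error 0.195, edgeR adjusted p = 0.00215). EIF4G1 and EIF4H were higher without overlap between the groups, at 0.35 and 0.25 on the log2 scale, but were not called (edgeR adjusted p = 0.0819 and 0.123). EIF4G1 was called without control culture 3, with the stricter filter on low counts, with a replicate block and with library totals alone, and EIF4H with library totals alone. The ratio of EIF4G1 to EIF4G2, a relative that lacks the part that binds eIF4E, was 0.402, 0.336 and 0.366 in irradiated and 0.285, 0.233 and 0.309 in control cultures. These ratios were apart, with a log2 difference of 0.424 (p = 0.1, two-sided exact permutation test, the smallest value that 3 against 3 allows).

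The cap-binding proteins themselves fell. EIF4E (chromosome 4, 98871684 to 98930637, minus strand) had 26.1, 27.2 and 29.8 CPM in irradiated cultures, against 51.4, 51.3 and 43.1 CPM in control cultures. It fell by 0.81 on the log2 scale (standard error 0.159, edgeR adjusted p = 0.00225). EIF4E2, a cap-binding relative that acts in repression, fell by 0.49 (edgeR adjusted p = 0.0129), a call lost without irradiated culture 3 or control culture 2 (adjusted p up to 0.0736). EIF4EBP1, which holds eIF4E away from eIF4G until mTOR phosphorylates it, had 92.2, 97.7 and 87.6 CPM in irradiated cultures, against 135, 160.2 and 120.1 CPM in control cultures, and fell by 0.58 (standard error 0.133, edgeR adjusted p = 0.0052). The ratio of EIF4E to EIF4EBP1 overlapped between the groups, with a mean of 0.301 in irradiated and 0.353 in control cultures (p = 0.2, two-sided exact permutation test). The related EIF4EBP2 had 58, 49 and 69 counts in irradiated libraries and 25, 30 and 65 in control libraries, and was not called (edgeR adjusted p = 0.421 in the fit of 12856 genes).

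EIF4A1, the main helicase of the complex, fell by 0.42 on the log2 scale (edgeR adjusted p = 0.0135), but its log2 fold change was 0.037 with library totals alone, and the call was lost without irradiated culture 1 or control culture 1 (adjusted p up to 0.0838). The ratio of EIF4A1 to its paralog EIF4A2 was 0.936 ± 0.0784 in irradiated and 1.036 ± 0.0407 in control cultures (SD, n = 3 each, p = 0.3, two-sided exact permutation test). EIF4A2, EIF4B and EIF4G2 were not called in the main fit, though EIF4A2 was called lower by DESeq2, with a replicate block and without control culture 3.

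**Figure D3:**
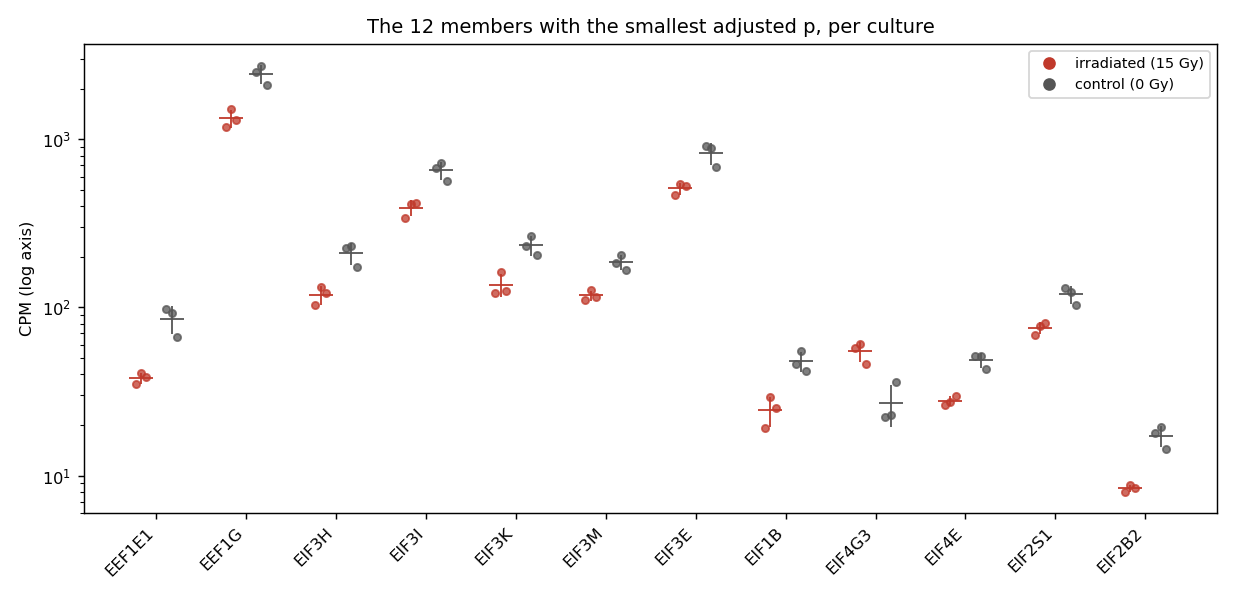
CPM in each culture (log axis) of the 12 members with the smallest adjusted p, with irradiated cultures left of control cultures, dashes for the mean and bars for the SD over 3 cultures. The groups are apart in all 12, 11 are lower in irradiated cultures and EIF4G3 is higher, and control culture 3, the rightmost grey point, is the control nearest to the irradiated cultures in each.

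Length of the mRNA moved with these values. Over 10668 genes the log2 fold change and the count-weighted transcript length had a Spearman rho of 0.366, and over the 43 members 0.355, across genes of the same libraries, which are not independent. Genes of 600 to 900 bases had a median of −0.459 and genes of 2200 bases or more had 0.24. The members lay below the median of all genes in each length class that held any, at −0.695 over 7 members against −0.356 from 900 to 1200 bases, and at −0.268 over 23 members against 0.24 from 2200 bases. After an offset that removes the trend of counts on length in each library, 23 members fell and EIF4G3 rose, with a median of −0.35 against 0.002 for all genes. In that fit EEF1B2, EIF4A1, EIF4E2, EIF4EBP1 and EIF6 lost their call and EIF2B1, EIF2S3, EIF3C, EIF3F, EIF4A2, EIF4G2 and EIF5 gained one. Why length moved with the fold changes was not tested.

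**Figure D4:**
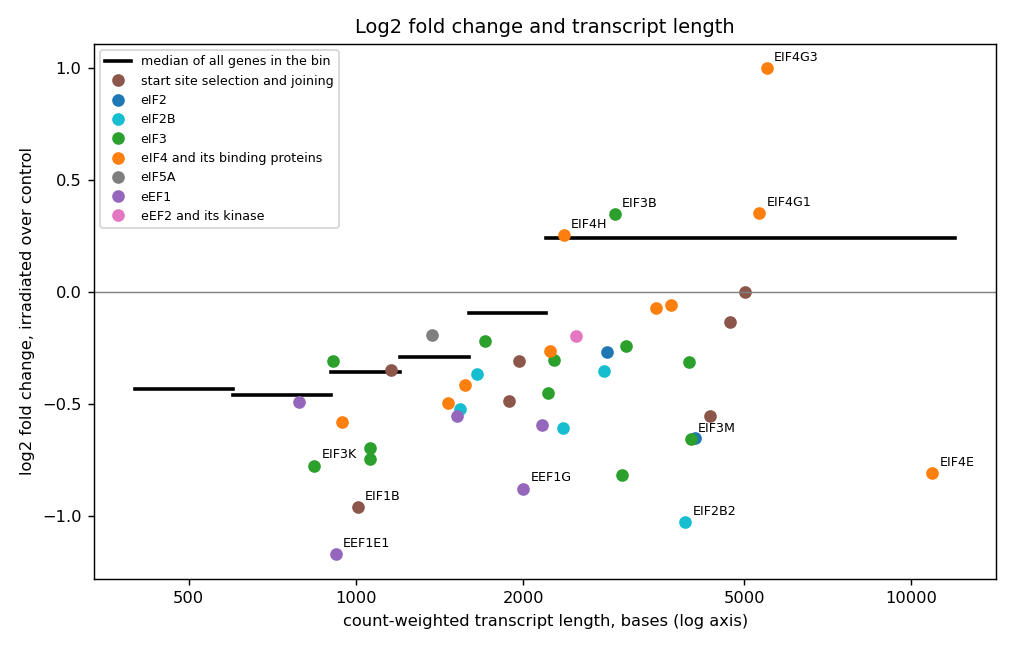
Log2 fold change (y axis, irradiated over control) against count-weighted transcript length in bases (log axis) for the 43 members, coloured by complex, with black lines for the median of all genes in each length class, drawn at the edges of the plot where a class is open. Most members lie below the line of their class, EEF1E1 and EIF2B2 lie lowest, and EIF4G3 lies above.

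The members with and without a pyrimidine tract at the annotated start did not separate by their values. The 11 members with a tract had a median of −0.308, and 4 fell, while the 26 tested members without one had a median of −0.39, and 12 fell. When TOP mRNAs were instead taken from general knowledge of the family, 6 of 9 such members fell, with a median of −0.552, against 15 of 34 other members, with a median of −0.358. This list includes EEF1G, EEF1D, EIF3E and EIF3H, whose start either has no tract in the window shown or had no entry. Among 5 further TOP mRNAs, 3 fell (median −0.471), where 14.1% of all genes fell. They were led by HNRNPA1 (−0.75) and the ribosomal scaffold gene RACK1 (−0.76).

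Of 11 regulators of the cap-binding complex and eEF2, 3 rose, where 11.6% of all genes rose, with a median log2 fold change of 0.126. These genes have long transcripts (median 3451 bases), and all genes of 2200 bases or more had a median of 0.24. The kinase gene MKNK2, whose product phosphorylates eIF4E, rose by 1.08 (edgeR adjusted p = 0.00173), and MTOR rose by 0.83 (edgeR adjusted p = 0.0118). Among the kinases and the phosphatase subunits of eIF2 alpha, 1 of 9 rose, a share near that of all genes. It was EIF2AK4 (GCN2, the sensor of uncharged tRNA), which had 55.5, 60.7 and 65.2 CPM in irradiated cultures, against 26.8, 23.9 and 38.3 CPM in control cultures. PPP1R15A, the stress-induced phosphatase subunit, was not called (log2 fold change −0.37, edgeR adjusted p = 0.0589).

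Of 8 tested genes of termination, recycling and poly(A) binding, PABPC1 fell by 0.47 and PABPC4 rose by 0.68. Both shares were near those of all genes, of which 14.1% fell and 11.6% rose. Of 5 genes of alternative initiation, MCTS1 and DENR, which together act in reinitiation, fell by 0.50 and 0.53 (14.1% of all genes fell). EIF4A3, a helicase of the exon junction complex, rose by 0.57 (11.6% of all genes rose). Of 13 genes that modify eIF5A, eEF1A or eEF2, EEF2KMT (−0.77), a methyltransferase of eEF2, and DPH3 (−0.53), of the diphthamide pathway, fell, a share near the 14.1% of all genes that fell. Of 9 mitochondrial translation factors, the elongation factor genes TUFM and TSFM fell, where 14.1% of all genes fell. TUFM had 60.6, 64.8 and 67.4 CPM in irradiated cultures, against 130.2, 128.7 and 94.8 CPM in control cultures, and fell by 0.87 on the log2 scale (edgeR adjusted p = 0.000904). DENR was chosen after its values were seen.

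As single transcripts, members were called in both directions. Of 468 member transcripts, 125 fell, in 36 genes (10.7% of all transcripts fell), and 38 rose, in 17 genes (8.54% of all transcripts rose), at an adjusted p under 0.05 in edgeR's test over 74843 transcripts. Both directions occurred within 15 genes, and 16 members not called as genes had a called transcript. With library totals alone 65 fell and 127 rose, and the count that rose was 24 without irradiated culture 1, 25 without irradiated culture 3, 22 without control culture 1 and 17 without control culture 2. Salmon divided reads between similar models: 87 of 235 member transcripts with at least 10 counts in each library, in 19 genes, were within 15% of another transcript of the same gene in every library. In EEF1G the protein-coding ENST00000329251 and the retained-intron ENST00000525340 held 50.18 and 49.56% of the counts in irradiated and 50.11 and 49.54% in control cultures, and the counts of such models cannot be read apart.

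The 5 transcripts that rose with the smallest adjusted p all belonged to the exchange factor of eEF1A. ENST00000482103, a model of EEF1B2 that keeps an intron, had 119, 99.7 and 139 CPM in irradiated cultures, against 39.99, 45.9 and 68.3 CPM in control cultures. Its log2 fold change was 1.20 (standard error 0.164, edgeR adjusted p = 7.03e-11), while the coding ENST00000445505 fell by 0.86 and could not be read apart from ENST00000392222, which fell by 0.82. The share of EEF1B2 counts on retained-intron models was 13.19 ± 1.98% in irradiated and 4.753 ± 1.51% in control cultures (SD, n = 3 each), and the shares did not overlap. In EEF1D, ENST00000530109, ENST00000529007, ENST00000527741 and ENST00000532400 rose by 0.90 to 1.09, and each made up 2.218 to 3.325% of the gene in irradiated and 0.7896 to 1.185% in control cultures. The coding EEF1D model ENST00000395119 fell by 0.98 (edgeR adjusted p = 1.86e-07), and its counts could not be read apart from those of other models of the gene such as ENST00000529272.

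The 5 transcripts that fell with the smallest adjusted p included ENST00000676547, ENST00000495333 and ENST00000491404 of EEF1A1, with log2 fold changes of −1.58, −1.42 and −1.35. The retained-intron model ENST00000495333 had 265, 403 and 305 CPM in irradiated cultures, against 903, 1024 and 676 CPM in control cultures. The most abundant EEF1A1 model in control cells, the coding ENST00000309268, fell by 0.91. ENST00000530191 of EEF1D and ENST00000379715, the main coding model of EEF1E1, fell by 1.37 and 1.33. In EEF1A1 the share of counts on retained-intron models was lower in irradiated cultures, at 15.72 ± 0.933% against 22.08 ± 1.54% in control cultures (SD, n = 3 each), the opposite of EEF1B2.

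The pooled shares of retained-intron and protein-coding models turned on the genes with the most counts. Over all members together, retained-intron models held 15.88 ± 0.439% of the kept member counts in irradiated and 18.19 ± 0.521% in control cultures (SD, n = 3 each), with no overlap. Over all genes the same class held 9.55 ± 0.184% in irradiated and 8.66 ± 0.287% in control cultures, with no overlap. Without EEF1A1 and EEF1G, left out after their values were seen, the member share was 11.14 ± 0.195% in irradiated and 9.178 ± 0.654% in control cultures (SD, n = 3 each), so the direction turned. Gene by gene, the share was higher without overlap in 13 of the 34 members with such models, lower in 4 and overlapping in 17. The class annotated for nonsense-mediated decay held 2.949 ± 0.195% of member counts in irradiated and 2.092 ± 0.218% in control cultures. Over all genes this class held 6.33 ± 0.0107% in irradiated and 6.34 ± 0.0212% in control cultures, and the groups overlapped. EEF1A1 and EEF1G had no kept models of this class. Its share without these genes was not computed, so whether they bear on this difference was not tested. By gene, 7 of 19 members with such models were higher without overlap and 4 lower. Protein-coding models held 59.53 ± 0.265% of member counts in irradiated and 58.27 ± 0.351% in control cultures. Without EEF1A1 and EEF1G these shares were 65.84 ± 0.435% in irradiated and 70.05 ± 1.08% in control cultures, and the direction turned here too. The share was lower without overlap in 19 of 43 members, higher in 3 and overlapping in 21. Over all genes it was 64.42 ± 0.483% in irradiated and 66.77 ± 0.655% in control cultures, with no overlap. For none of the classes was the count by gene made over all genes, so these counts cannot be read as particular to the members. Classes come from GENCODE release 29, which holds 501 of the 614 member transcripts and 82.8% of their counts. Most counts had no class in EIF3I (93.34% in irradiated and 96.05% in control cultures), EIF3F (68.27 and 64.07%) and EIF4H (73.52 and 67.97%). The same held in EIF3E (60.35 and 56.21%) and EIF4G3 (53.92 and 54.44%). EIF3I is among the members with a higher protein-coding share, on 2.547% of its counts in irradiated and 1.48% in control cultures.

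Isoform usage, the share of a gene's counts on 1 transcript, was called by an adjusted p under 0.05 together with a difference of 10 percentage points or more (edgeR's diffSpliceDGE). Of the member transcripts, 7 in 7 genes were called, against 0.41% of 73603 transcripts over all genes, and all 7 gained share in irradiated cultures. The test could hardly call a transcript that holds most of its gene's counts, so losses by such transcripts are missing from this count. The largest gain was in EIF3G, an RNA-binding subunit of eIF3. Its short coding model ENST00000593054 made up 31.8, 32.9 and 31.6% of the gene in irradiated cultures, against 11.0, 13.7 and 19.2% in control cultures. The groups were far apart, and the mean difference was 17.46 points (edgeR adjusted p = 3.58e-05).

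EIF4EBP1 has 2 measured models. The non-coding processed transcript ENST00000520657 made up 34.4, 29.4 and 32.3% in irradiated cultures, against 14.9, 13.1 and 21.7% in control cultures (edgeR adjusted p = 0.000551), and the coding ENST00000338825 the rest. The level of the non-coding model was not called as changed (29.03 ± 1.83 CPM in irradiated and 22.75 ± 3.08 CPM in control cultures, SD, n = 3 each), while the coding model fell by 0.94 on the log2 scale (edgeR adjusted p = 4.79e-07).

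In EIF3M, ENST00000524896 made up 32.6, 28.1 and 30.6% in irradiated cultures, against 14.2, 14.2 and 21.6% in control cultures (edgeR adjusted p = 0.00152). In EIF3D, a subunit that can bind the cap of some mRNAs, the retained-intron model ENST00000462641 made up 30.1, 26.2 and 28.7% in irradiated cultures, against 12.5, 12.9 and 20.6% in control cultures (edgeR adjusted p = 0.000341). As a gene EIF3D averaged 100.1 ± 6.05 CPM in irradiated and 116.3 ± 2.63 CPM in control cultures (SD, n = 3 each) and was not called. In these genes too, control culture 3 had the highest share among the controls.

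In EIF2S1 the shorter coding model ENST00000466499 made up 27.1, 19.7 and 26.2% in irradiated cultures, against 9.18, 10.4 and 16.6% in control cultures (edgeR adjusted p = 0.000404). In EEF2 the short coding model ENST00000600794, of 352 bases, made up 28.4, 26.9 and 29.4% in irradiated cultures, against 17.8, 14.8 and 20.6% in control cultures (edgeR adjusted p = 0.00196). The EIF2B2 call rests on few reads. Its retained-intron model ENST00000556668 had 15, 7 and 10 counts in irradiated libraries and 2, 7 and 11 in control libraries (edgeR adjusted p = 0.0467). The call was lost with library totals alone (adjusted p = 0.0503, edgeR), with a replicate block (adjusted p = 0.0827, edgeR) and without irradiated culture 1 or 3 or control culture 1 or 2 (adjusted p 0.14 to 0.421, edgeR).

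In all 7 genes the model with the largest control share had a lower mean share in irradiated cells, and as a level it fell in each. ENST00000216190 of EIF3D made up 56.24 ± 3.42% in irradiated and 74.85 ± 6.69% in control cultures, and ENST00000531120 of EIF3M made up 65.73 ± 1.86% and 78.92 ± 5.46% in irradiated and control cultures (SD, n = 3 each). None of these main models passed the usage test itself, with adjusted p of 0.141 and above. That test sets the change of a transcript against that of its whole gene, which a model with most of the counts dominates. In EIF4EBP1 the 2 models changed share by 15.47 and −15.47 points, with adjusted p of 0.000551 and 0.435 (edgeR). The lack of calls among main models therefore cannot be read as a result. The gained model was shorter than the main model in all 7 genes, for example 453 bases in EIF3G against 1103 bases for ENST00000253108. Without control culture 3 the count of called isoforms was 14, and without irradiated culture 3 or control culture 2 it was 5.

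**Figure D5:**
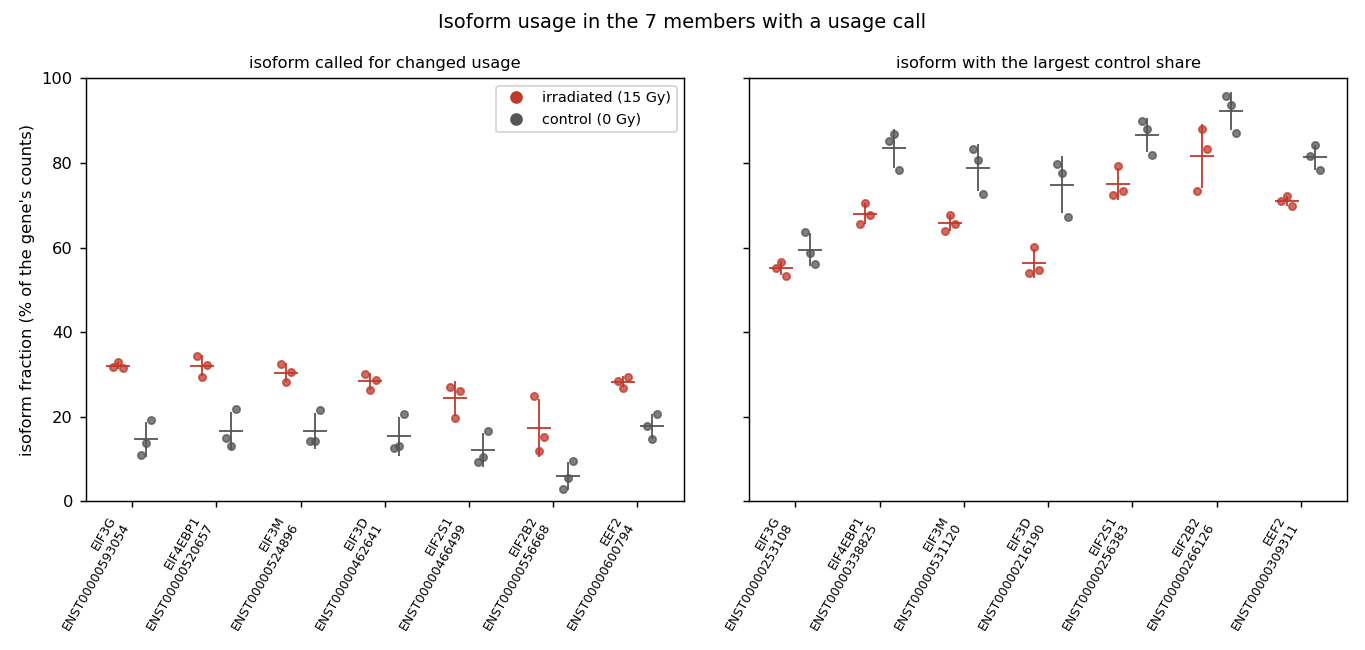
Isoform fraction (y axis, percent of the gene's counts) in each culture for the 7 called isoforms (left panel) and for the isoform with the largest control share in the same genes (right panel), with irradiated cultures left of control cultures, dashes for the mean and bars for the SD over 3 cultures. Every called isoform lies higher in irradiated cultures, from 28.1 to 32.6% against 14.2 to 21.6% in EIF3M, and every main isoform has a lower mean.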

How the data were processed

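RNA of 6 HMC3 cultures, 3 irradiated with 15 Gy and 3 at 0 Gy, was measured as long-read cDNA. The deposited values are estimated counts per transcript, which the authors obtained by aligning reads to GRCh38 with minimap2 and quantifying with Salmon (versions not given in the sources used here) and deposited as whole numbers. The annotation release, the strand handling and any collapsing of reads by molecular identifiers are likewise not given in those sources. If PCR copies were counted, counts are not independent molecules. Member transcripts were matched by gene name.

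A transcript was kept where any library gave it 3 or more counts, and a gene where 3 or more libraries gave it 10 or more and 2 or more of its transcripts were kept. Kept transcripts were summed per gene. The kept transcripts held 95.63 to 96.45% of each library's counts. Tests used edgeR 4.0.16 (TMM, robust glmQLFit, glmQLFTest, and diffSpliceDGE for usage) in R 4.3.3 on the whole table with Benjamini-Hochberg adjustment. The standard error is the absolute log2 fold change over the square root of F. CPM and isoform fractions were not divided by length. Figures were drawn with Python 3.11.15 and matplotlib 3.10.9.

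In simulated counts for the gene comparison over 11118 genes, edgeR found 34 of the 100 with a 1.5-fold change and 94 of the 100 with a 2-fold change, and made 3 false calls. The simulation gave all genes the same spread, changed only abundant genes and far fewer than were called in the data, and had no shift between the groups. The shares found therefore do not carry over to the members. A member not called may still differ by a moderate fold.

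Alternatives were RLE factors, library totals, other filters, DESeq2 1.42.0, diffSplice of limma 3.58.1, other thresholds, a replicate block, and leaving out each library in turn. Alternatives chosen after the data had been seen were genes with a single transcript, an offset for the trend on length, isoform fractions from counts divided by length, class shares without EEF1A1 and EEF1G and eEF1 without EEF1E1. Per-culture values are given for the 12 members of smallest adjusted p, the 4 with the most counts, those with a usage call and those not tested. Named transcripts are the 7 usage calls, the 5 higher and 5 lower with the smallest adjusted p and the most abundant model of those genes, and 2 genes are named from each other list. Others (EIF3B, EIF4G1, EIF4H, DENR, PPP1R15A and the transcripts of EEF1G) were chosen after their values were seen. The members and lists were chosen with earlier results of these data known. Sequences are from RefSeq on GRCh38.p14.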

Additional observations from a re-analysis of the deposited data

How the results depend on the processing

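With library totals in place of TMM, 8 members fell and 7 rose, 65 member transcripts fell and 127 rose, and the median log2 fold change of the tested members was 0.037, of eIF3 0.070 and of eIF4 0.286. The sign also turned for EIF2A (0.141), EIF5 (0.322), EIF5B (0.443), EIF6 (0.10), EIF2S3 (0.188), EIF2B4 (0.090), EIF2B5 (0.088), EIF3C (0.217), EIF3D (0.232), EIF3F (0.143), EIF3G (0.144), EIF3J (0.146), EIF4A1 (0.037), EIF4A2 (0.187), EIF4B (0.385), EIF4G2 (0.392), EIF5A (0.256) and EEF2 (0.260). The median over all genes moved as well, from 0.0803 with TMM to 0.528 with library totals. EIF5B, at −0.001 with TMM, also turned with no filter on low counts (0.010) and with a stricter one (0.015), and ran from −0.124 to 0.101 with 1 culture left out, while EIF4B ran from −0.170 to 0.034. With the offset for length EIF3G was at 0.033 and EIF5A at 0.043. An absolute log2 fold change over 1 left 2 members lower and 0 higher, and 59 transcripts lower and 9 higher. No filter gave 25 higher transcripts and DESeq2 18, and the stricter filter gave 2 higher members. For usage, limma's diffSplice called 17 isoforms and a limit of 0.05 on the difference in fraction called 18. With 1 culture left out, 17 to 27 members fell and 1 to 3 rose, 17 to 51 transcripts rose, and 5 to 14 isoforms were called. The causes of these differences were not tested. RLE factors and DESeq2 each gave 23 members lower and 1 higher.

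Cultures were independent within each group, and whether same-numbered cultures of the groups belong together is not stated. The deviations of same-numbered cultures correlated at −0.0304, 0.279 and 0.101 over 6171 genes. Those of differently numbered cultures correlated at −0.325 to 0.248, so the numbers were not taken to pair the cultures. A replicate block gave 24 members lower and 2 higher, and 10 isoforms with changed usage. Depth limits EEF2K, EIF2B2 and EIF4EBP2 most.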
